A study of Mus musculus with 8 samples.

Results

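The genes of the cytosolic chaperonin TRiC (also called CCT) were examined in ATAC-seq peak lists of mouse natural killer (NK) cells. All 8 subunit genes, Tcp1, Cct2, Cct3, Cct4, Cct5, Cct6a, Cct7 and Cct8, were taken, out of 21887 protein-coding genes. A peak was linked to the protein-coding gene whose end lay nearest to the peak's midpoint within 50 kb, and 100 of the 364277 deposited peaks were linked to a subunit gene in this way. They formed 13 of the 50044 consensus regions, a consensus region being a set of peaks that overlap by at least 1 bp and come from at least 2 libraries. ATAC-seq marks open chromatin by where a transposase can insert sequencing adapters. The study compared mice whose HSF1, the transcription factor that drives heat shock genes, carries alanine in place of serines 303 and 307 (S303/7A, here MUT) with mice wild-type for HSF1 (WT). There were 4 MUT libraries (replicates 26, 27, 28 and 29) and 4 WT libraries (replicates 4, 5, 6 and 7), each from the splenic NK cells of 1 mouse at steady state. The cells were enriched with DX5 beads and sorted as CD49b+ CD3e-, and 200000 cells entered each assay. The labels give no strain, age, sex or litter and pair no samples, so any other difference between the MUT and WT mice or in their handling cannot be told apart from the genotype. In these bulk libraries, fewer cells with an open site and less open chromatin per cell cannot be told apart either.

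TRiC is a pair of back-to-back rings, each built from the 8 different subunits, that encloses and folds newly made proteins with ATP. Actin and tubulin are its best known substrates, and many WD40-repeat proteins also need it, among them Gβ subunits and the cell-cycle activator CDC20. Prefoldin delivers some of these substrates to TRiC. Unlike heat-induced chaperones such as HSP70, TRiC is abundant in unstressed cells, and in human cells it has been described to bind HSF1 and to hold back its activity. HSF1 binds heat shock elements, runs of the base triplet GAA in alternating orientation. Phosphorylation of the serines replaced in MUT is known as a mark of restrained HSF1.

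The DNA just before the annotated starts of 4 subunit genes is shown because nearly all of it lies under the peaks described next and because the genes differ in what it holds. The sequences are from RefSeq (GRCm38.p6, the build of the files), read 5′ to 3′ on the gene's strand and ending at the base before the start. Bases inside a neighbouring protein-coding gene were left out, which leaves the whole 135 bases between Cct3 and its divergent neighbour Tsacc, and 250 bases at the other 3 genes. Capitals mark matches, on either strand, to the heat shock element pairs GAANNTTC and TTCNNGAA, to CCAAT, to GGGCGG (Sp1 and KLF family), to CCGGAA (ETS family), to TATAAA and to the NRF1 and ZNF143 motifs.
Cct3 chr3:88297000-88297134 (+ strand): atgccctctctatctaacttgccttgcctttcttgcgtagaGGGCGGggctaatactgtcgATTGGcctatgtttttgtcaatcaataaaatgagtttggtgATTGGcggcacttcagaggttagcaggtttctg
Cct2 chr10:117063853-117064102 (- strand): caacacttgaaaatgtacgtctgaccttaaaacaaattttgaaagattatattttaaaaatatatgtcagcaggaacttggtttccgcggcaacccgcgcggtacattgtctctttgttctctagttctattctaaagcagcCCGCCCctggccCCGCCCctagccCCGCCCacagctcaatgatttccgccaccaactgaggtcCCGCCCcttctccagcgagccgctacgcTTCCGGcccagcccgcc
Cct5 chr15:31601847-31602096 (- strand): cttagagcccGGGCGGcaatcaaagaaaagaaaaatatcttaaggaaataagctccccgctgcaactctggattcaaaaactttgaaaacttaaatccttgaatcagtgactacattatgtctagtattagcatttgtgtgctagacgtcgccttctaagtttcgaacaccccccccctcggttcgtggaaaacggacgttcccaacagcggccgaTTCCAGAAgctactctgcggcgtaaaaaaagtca
Cct8 chr16:87495870-87496119 (- strand): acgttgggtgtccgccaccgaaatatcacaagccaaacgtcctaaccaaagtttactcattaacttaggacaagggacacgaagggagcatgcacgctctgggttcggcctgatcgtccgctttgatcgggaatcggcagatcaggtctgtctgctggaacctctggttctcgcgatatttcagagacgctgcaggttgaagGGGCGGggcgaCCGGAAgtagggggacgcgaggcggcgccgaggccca
Cct5 is the 1 gene of these 4 with a heat shock element pair in the bases shown, TTCCAGAA, at 34 to 27 bases before the start. Cct3 has a pair of CCAAT matches, Cct2 has 4 GGGCGG matches and 1 CCGGAA match, and Cct8 has 1 of each of those motifs side by side. No 2 matches overlap in the bases shown.

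Motif counts were made over windows of 250 bases before to 50 bases after each start, which the RefSeq table holds for 7 of the 8 genes (not Cct4). A gene was counted if any of its windows held a match, and Cct2 and Cct5 have a second window. The percentages count windows, so the units differ. GGGCGG was found in 7 of 7 genes, against 35.6% of all 32817 promoter windows and 68.3% of the 11458 windows whose start lay in a region called in all 8 libraries. CCGGAA was found in 5 genes (Tcp1, Cct2, Cct5, Cct7 and Cct8), against 14.9% of all windows and 31.4% of those in open regions. The Cct5 match lies at a second annotated start inside the gene, so 4 genes hold CCGGAA at the start that is the gene's end. CCAAT was found in 4 (Tcp1, Cct3, Cct6a and Cct7), against 37.4% and 38.1%, with 3 matches in Cct7. The palindromic NRF1 motif was found in Cct3 and Cct5, against 4.59% and 11.5%. Single heat shock element pairs were found in 3 genes. TTCNNGAA was in Cct5 and, after the start, in Cct6a, against 8.51% and 6.42%, and GAANNTTC was 42 to 35 bases before a second annotated start of Cct2, against 7.86% and 5.34%. The heat shock element triplet joins both pairs through a shared arm and reads as its other form on the other strand. It was in 0 of 7 genes, against 0.603% of all windows and 0.471% of those in open regions. TATAAA and the ZNF143 motif were also in 0 of 7. Their shares were 13.6% and 0.286% of all windows, and 5.71% and 0.733% of those in open regions. A match describes letters and is no evidence of binding.

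The deposited lists hold 44333 to 49627 peaks per MUT library and 42695 to 46102 per WT library, with median widths of 398 to 411 bp in either group. They give no read counts, so sequencing depth is unknown. Each peak also has a positive score, the authors' own value, used here only as a percentile within its own list (100 being the highest score), taken for a region from its strongest peak. Of the NK cell marker genes, 8 of 8 (Ncr1, Klrb1c, Klrk1, Eomes, Tbx21, Prf1, Gzmb and Itga2) had a region within 1 kb of a gene end in all 8 libraries, with a summed linked length of 31167 to 35168 bp in MUT and 32110 to 34182 bp in WT. Of the markers of other cells, 2 of 5 T cell genes (Cd3e and Cd3g), 0 of 4 B cell, 2 of 4 myeloid, 0 of 3 basophil and 1 of 4 erythroid and platelet genes had such a region. The T cell sums were 712 to 1205 bp in MUT and 680 to 805 bp in WT, with no peak linked to Cd4, Cd8a or Cd8b1 in any library. The B cell sums were 1401 to 1921 bp in MUT and 1279 to 1788 bp in WT, with none at Cd79a or Ms4a1. The myeloid sums were 5253 to 6365 bp in MUT and 5020 to 6031 bp in WT, with none at Lyz2. The basophil sums were 1924 to 2381 bp in MUT and 1680 to 2378 bp in WT, and the erythroid and platelet sums were 1673 to 2186 bp in MUT and 1588 to 2160 bp in WT, with none at Hbb-bs. The part of such cells in the results on TRiC genes was not tested.

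All 8 subunit genes had an open region within 1 kb of a gene end in all 8 libraries, against 48.9% of protein-coding genes. Each of these regions lay over the annotated start site, or in Cct4, whose strand the tables used here do not give, over the end with the lower coordinate. All 13 linked regions were called in 8 of 8 libraries, against 68.9% of all consensus regions. None was called in 1 genotype only, against 0.583% of regions called only in MUT and 0.178% only in WT. With 4 libraries against 4, Fisher's exact test (two-sided) cannot go below an unadjusted p of 0.0286. Adjusted over all regions it called 0. The 381 regions (0.761%) at an unadjusted p under 0.05 are the same regions that were called in 1 genotype only. A region called in 8 of 8 libraries cannot differ in this test. The test therefore says nothing about the 13 linked regions.

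**Figure D1:**
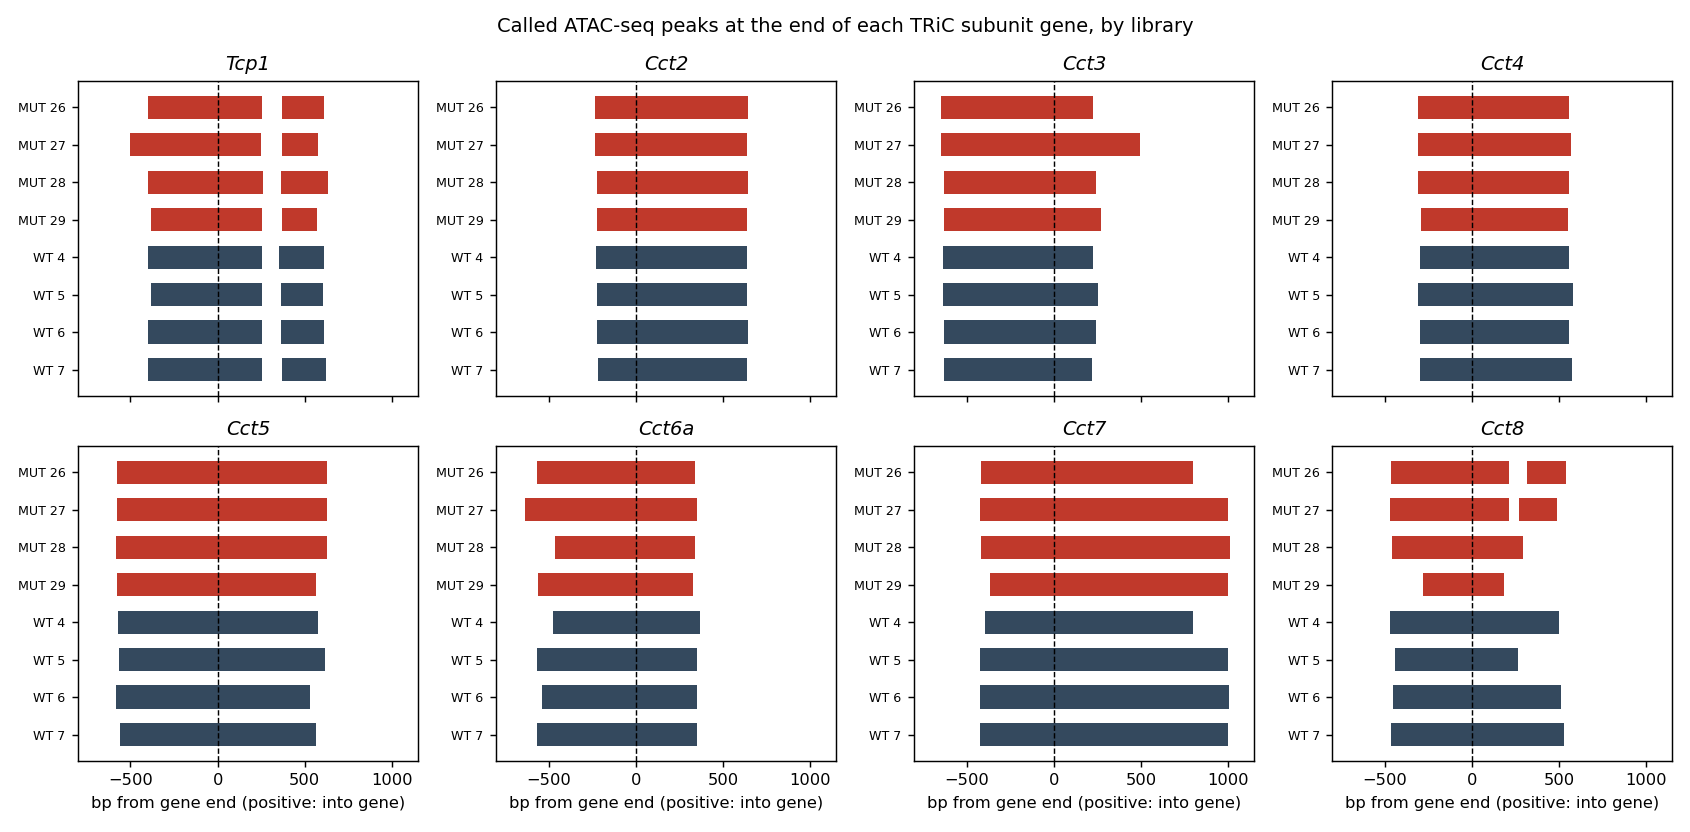
Peaks around the end of each TRiC subunit gene that carries the region in the 4 MUT libraries (upper rows) and the 4 WT libraries (lower rows), drawn to scale as distance in bp from the gene's end. In every library and gene a peak spans the gene end, and the Cct7 peaks of MUT replicate 26 and WT replicate 4 and the Cct8 peak of MUT replicate 29 end earlier inside the gene than the others.

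The following measures were used for each gene or region. Linked length is the summed width in bp of the peaks linked to a gene in a library, and differences were tested with limma on log2(length scaled to the median library + 200 bp), MUT minus WT, over all 14259 genes with a linked peak in at least 2 libraries. Region width is the summed width of the peaks in 1 region, tested with limma on the log2 scale over the 34461 regions called in 8 of 8 libraries, after scaling each library so that its median width over these regions was the same. Adjusted p-values are Benjamini-Hochberg over each whole table, with a threshold of 0.05. The bp values printed are unscaled, so a small fitted difference can have another sign than the difference of the printed means. The score percentile was not tested, since ranks from lists of different lengths show no change.

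None of the subunit genes passed the test of linked length. It called 0 of 7 tested subunit genes, against 0.673% of all tested genes (96, of which 63, or 0.442% of all genes, were higher and 33, or 0.231%, lower in MUT). At an unadjusted p under 0.05 there was 1 subunit gene (Cct8), against 11.2% of all genes. The median difference was −0.032 over the 7 genes, with 5 below 0 and 2 above, and −0.019 over all genes, of which 57.9% were below 0. With no scaling, 3 of the 7 were below 0 and 4 above (Tcp1 and Cct2 turned), and the median over all genes was 0.013. No subunit gene had lengths that separated the MUT from the WT libraries, against 5.75% of all genes. None of the 15 regions passed the width test either, against 0.0783% of all tested regions (27), and 0 of the 15 had an unadjusted p under 0.05, against 9.69%. These 15 are the 13 linked regions and 2 regions within 1 kb of a subunit gene that were linked to a neighbour. After scaling, 3 of them had a difference above 0 and 12 below 0, with a median of −0.038, against −0.018 over all regions, of which 58.9% were below 0. With no scaling 6 were above 0 and 9 below (the first Cct2 and Cct6a regions and the third Cct8 region turned), with a median of −0.0094, against 0.0098 over all regions. Their widths overlapped between the genotypes in 15 of 15, and 5.41% of all tested regions did not overlap.

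**Figure D2:**
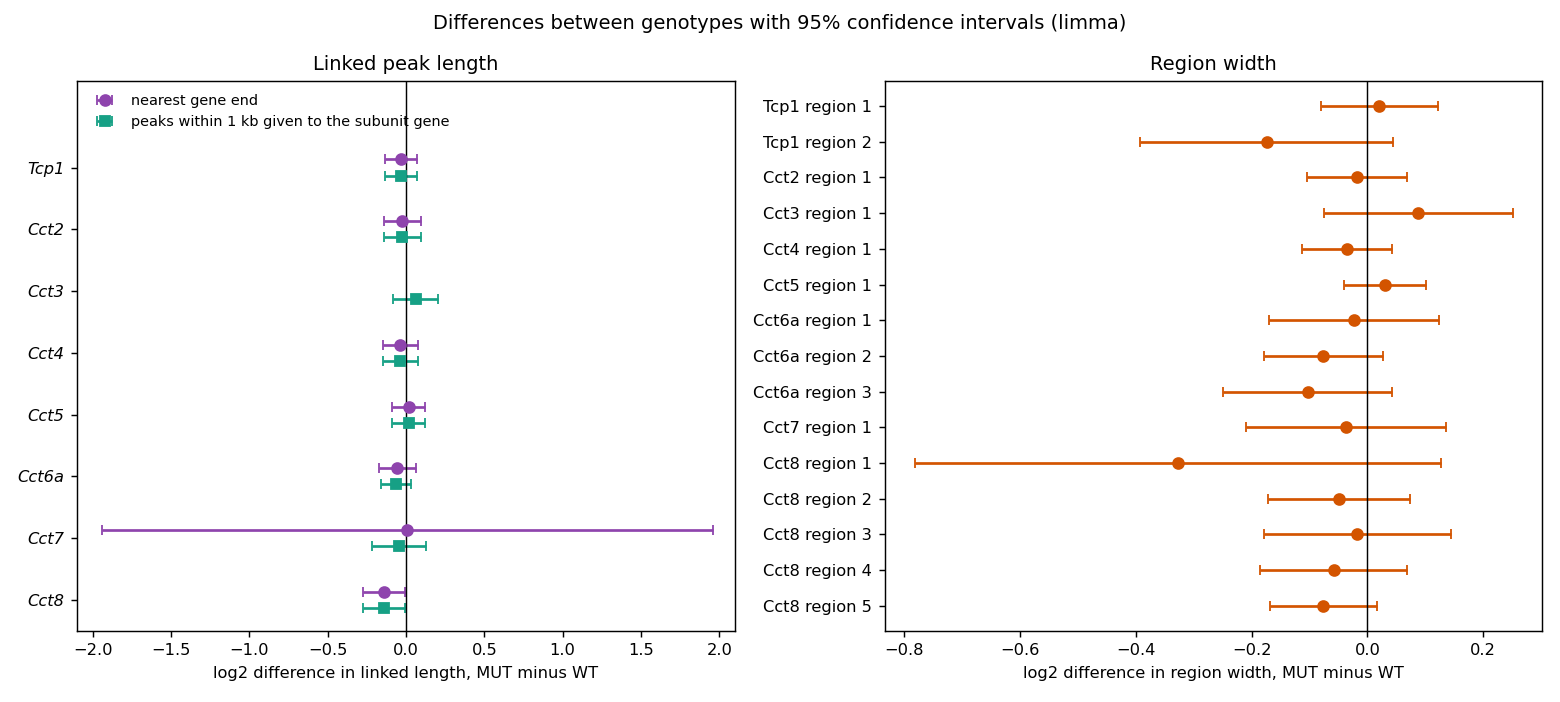
Differences between the genotypes (MUT minus WT, log2 scale) with 95% confidence intervals from limma, for linked length per gene (left) and for width of each of the 15 regions (right). The circles use the nearest gene end and the squares give every peak within 1 kb of a subunit gene to that gene. The Cct8 length interval (−0.27 to −0.0042) is the 1 interval among the circles that leaves out 0.

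Cct2, Cct4 and Cct5 encode subunits that in yeast bind ATP tightly and lie on 1 side of the ring, and CCT4 with CCT2 or CCT5 contacts folding actin. These 3 genes have 1 linked region each and no other. The Cct2 region (chr10:117063207-117064085) ran from 216 to 233 bp before the gene's start to 636 to 645 bp inside it. It was 877, 870, 868 and 862 bp wide in MUT and 868, 859, 868 and 857 bp in WT. The groups overlapped, and the widest over the narrowest library gave a ratio of 1.02, against a median of 1.21 over the 10480 gene-end regions called in 8 of 8 libraries. Only 1.40% of those regions varied less. The scaled width difference was −0.018 (SE 0.038; limma adjusted p = 0.906), with a 95% interval of −0.10 to 0.068. With no scaling it was 0.010, the direction of the widths printed.

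The score of this Cct2 region lay at percentiles 76.2, 80.4, 77.8 and 81.6 of the MUT lists and 85.9, 82.8, 84.9 and 85.7 of the WT lists. All 4 MUT percentiles were below all 4 WT percentiles, as a description of ranks within lists. This separation in either direction was seen in 3 of the 15 regions, against 12.8% of all tested regions. It was also seen at Cct5, lower in MUT, and at the third Cct8 region, higher in MUT. When each list was reduced to the same number of strongest peaks, Cct2 was the 1 region of the 3 whose groups stayed apart. The share of all regions that separate in this setting was not counted, so nothing particular to Cct2 can be read from it.

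The Cct4 region (chr11:22990282-22991171) was 871, 880, 871 and 846 bp wide in MUT and 860, 890, 860 and 874 bp in WT. The groups overlapped throughout, with a difference of −0.035 (SE 0.034; limma adjusted p = 0.783; 95% interval −0.11 to 0.043). Its score was among the highest of the subunit genes, at percentiles 95.5 to 96.7 in MUT and 94.6 to 96.7 in WT, above 91.6% of the gene-end regions. The Cct5 region (chr15:31601221-31602427), which holds the heat shock element pair shown above, was 1203, 1202, 1207 and 1144 bp wide in MUT and 1148, 1185, 1111 and 1123 bp in WT. Of the MUT libraries 3 were above every WT library and MUT replicate 29 lay among them, so the groups overlapped. The mean width was 1189 ± 30.1 bp in MUT and 1142 ± 32.7 bp in WT (SD, n = 4 each), with a difference of 0.030 (SE 0.031; limma adjusted p = 0.791; 95% interval −0.040 to 0.10). It was wider than 90.3% of gene-end regions, while its score percentiles (69.7, 69.0, 68.1 and 67.2 in MUT; 72.7, 70.2, 70.8 and 71.7 in WT) were above those of 41.1%.

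Cct3, Cct6a and Cct8 encode the subunits on the opposite side of the ring, which in yeast bind ATP weakly. At Cct3 no peak was linked to the gene by the nearest-end rule, because the gene shares its open region with Tsacc, a gene for a co-chaperone of a testis kinase that starts 136 bp away on the other strand. The shared region (chr3:88296489-88297632) had its midpoint 43 to 76 bp from the Tsacc end and 74.5 to 212 bp from the Cct3 end, and covered the 135 bases between the genes in all 8 libraries. It was 869, 1144, 875 and 903 bp wide in MUT and 857, 890, 876 and 853 bp in WT. MUT replicate 27 stood apart, its peak reaching 497 bp into Cct3 against 221 to 272 bp in the other 7 libraries. The mean was 948 ± 132 bp in MUT and 869 ± 17.2 bp in WT (SD, n = 4 each), and the width difference was 0.088 (SE 0.071; limma adjusted p = 0.736; 95% interval −0.075 to 0.25). Without MUT replicate 27 it was 0.017. Its scores were at percentiles 91.9 to 93.9 in MUT and 92.7 to 94.7 in WT.

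Cct6a encodes the zeta subunit and has 2 linked regions. The region over its start (chr5:129786719-129787727), where Psph, the gene for phosphoserine phosphatase, starts on the other strand with its end 87 bp inside Cct6a, was 911, 991, 806 and 888 bp wide in MUT and 844, 923, 889 and 921 bp in WT. MUT replicates 27 and 28 were the widest and the narrowest of all 8 libraries. The scaled difference was −0.024 (SE 0.064; limma adjusted p = 0.930), and with no scaling it was 0.0047. A second region (chr5:129778888-129779528), with its midpoint 8148 bp before the start, was 518, 572, 535 and 511 bp wide in MUT and 579, 632, 531 and 513 bp in WT (difference −0.10, SE 0.064; limma adjusted p = 0.644). A region beyond the far end of the gene (chr5:129846630-129847216) was linked to the neighbour Sumf2. It had the highest scores of the 15, at percentiles 97.3 to 99.2 in MUT and 97.5 to 99.6 in WT, and its width difference was −0.076 (SE 0.045; limma adjusted p = 0.628).

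Cct8 encodes the theta subunit and had the most linked regions of the 8 genes, 5, against a median of 2 over all tested genes. Its linked length was 2515, 2587, 2419 and 2051 bp in MUT and 2641, 2393, 2600 and 2667 bp in WT. Of the WT libraries 3 lay above every MUT library, and WT replicate 5 lay among the MUT values. The mean was 2393 ± 238 bp in MUT and 2575 ± 125 bp in WT (SD, n = 4 each), a log2 difference of −0.14 (SE 0.059; 95% interval −0.27 to −0.0042). This was the lowest limma p of the 7 genes, 0.0446 unadjusted, and it did not pass after adjustment (adjusted p = 0.426). With the upper 50% of each list by score the difference was −0.028, and with equal numbers of peaks it was −0.18 (limma adjusted p = 0.212).

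Most of this spread sat in the region over the Cct8 start (chr16:87495330-87496341). It was 902, 904, 755 and 469 bp wide in MUT and 972, 708, 967 and 994 bp in WT, and in MUT replicates 26 and 27 it was called as a pair of peaks (227 and 675 bp, 221 and 683 bp). The smaller peak of each pair was at percentile 0.232 and 0.261 of its list. Of all regions called in 8 of 8 libraries, 11.9% were split into several peaks in at least 1 library. The widest library was 2.12 times the narrowest, a ratio exceeded by few gene-end regions (96.4% varied less), while the edge outside the gene moved between 283 and 472 bp and the edge inside the gene between 185 and 539 bp. The mean was 758 ± 205 bp in MUT and 910 ± 135 bp in WT (SD, n = 4 each), and the width difference of −0.33 (SE 0.20; 95% interval −0.78 to 0.13) did not pass (limma adjusted p = 0.639). It was −0.14 without MUT replicate 29, and −0.53 both with equal numbers of peaks and with the widest peak alone. MUT replicate 29, the narrowest at 469 bp, had a score percentile of 72.6, close to the 72.7 of MUT replicate 26.

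**Figure D3:**
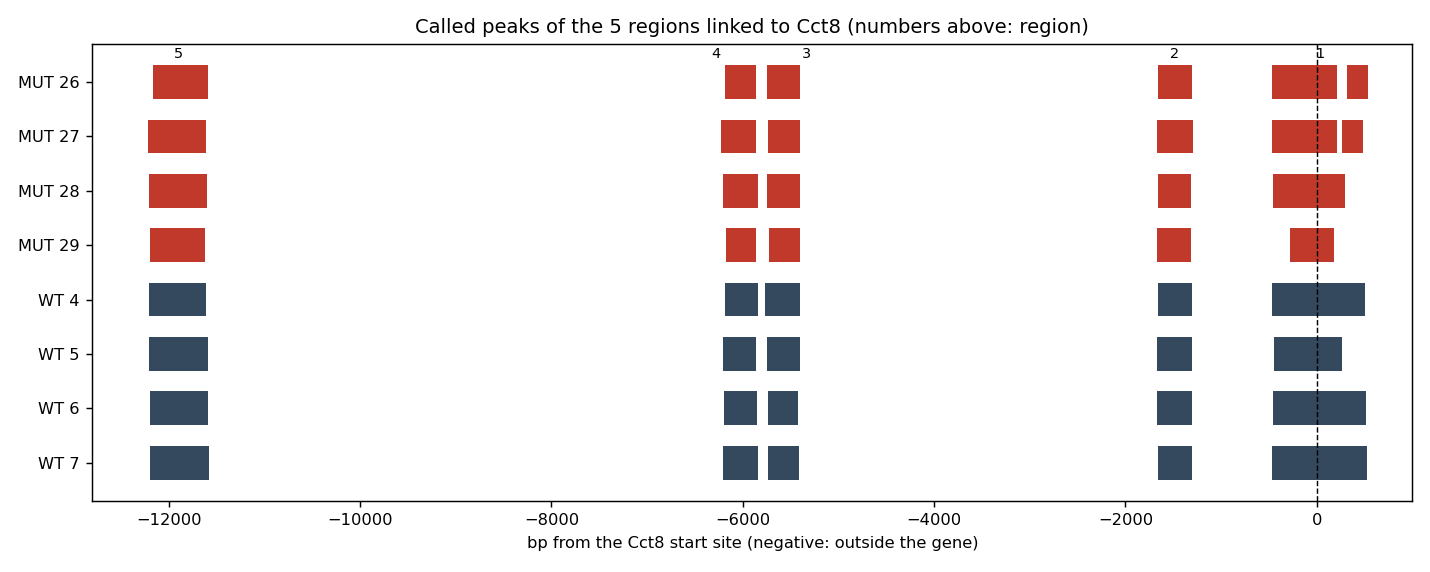
The 5 regions linked to Cct8 in each of the 4 MUT libraries (upper rows) and the 4 WT libraries (lower rows), drawn to scale as distance in bp from the gene's start. The numbers count the regions from the gene outwards. Every region is present in every library, and the region over the start varies in width from 469 to 994 bp, while the others keep nearly the same edges.

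The other 4 Cct8 regions lay before the start, with midpoints 1480.5, 5579, 6031 and 11896.5 bp away. Their mean widths were 359, 342, 343 and 592 bp in MUT and 364, 340, 350 and 612 bp in WT, all with overlapping groups. The region farthest from the gene (chr16:87507448-87508083) was 575, 609, 607 and 577 bp wide in MUT and 597, 616, 614 and 620 bp in WT, with a difference of −0.076 (SE 0.041; limma adjusted p = 0.590). Its score percentiles were 45.7, 64.7, 54.3 and 44.1 in MUT and 68.6, 68.1, 55.9 and 64.5 in WT, and the groups overlapped. The third region (chr16:87501265-87501631) was at percentiles 52.5, 56.1, 52.4 and 55.8 in MUT and 49.2, 43.8, 34.2 and 48.6 in WT. These are mid-list scores, unlike those of the first regions of Tcp1, Cct3 and Cct4, which were above the 90th percentile in every library.

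**Figure D4:**
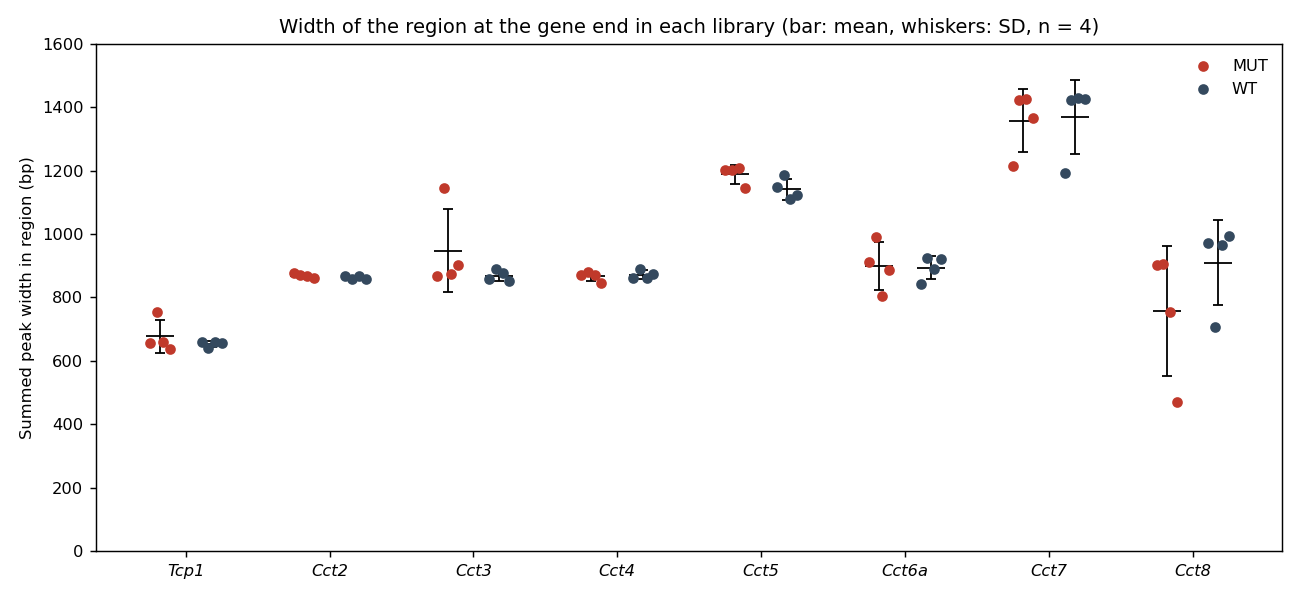
Width in bp of the region over the end of each of the 8 genes in the 4 MUT libraries (left in each pair) and the 4 WT libraries (right), 1 point per library, with bars at the group mean and whiskers of 1 SD (n = 4 each). The groups overlap in every region plotted, and the region over the Cct8 start has the widest spread, 469 to 904 bp in MUT and 708 to 994 bp in WT.

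Tcp1 and Cct7 encode the alpha and eta subunits; Tcp1 was named for the mouse t-complex on chromosome 17. The Tcp1 region over the start (chr17:12915825-12916587) was 656, 755, 660 and 637 bp wide in MUT and 659, 640, 658 and 655 bp in WT (difference 0.021, SE 0.044; limma adjusted p = 0.906). Its score percentiles were 94.1 to 96.2 in MUT and 92.4 to 95.4 in WT. A second region just inside the gene (chr17:12916679-12916964) was 242, 208, 270 and 200 bp wide in MUT and 263, 243, 247 and 258 bp in WT, close to the minimum peak width of 200 bp. Its scores were at the bottom of every list, at percentiles 0.406 to 3.71 in MUT and 0.397 to 1.64 in WT, and its difference was −0.17 (SE 0.095; limma adjusted p = 0.598). Together the linked length of Tcp1 was 907 ± 53.7 bp in MUT and 906 ± 16.7 bp in WT (SD, n = 4 each; limma adjusted p = 0.83).

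At Cct7 the open region (chr6:85451079-85452514) also covers the start of Pradc1, a gene on the other strand whose end lies 482 bp inside Cct7. It was 1215, 1424, 1427 and 1367 bp wide in MUT and 1193, 1424, 1430 and 1426 bp in WT, wider than 96.5% of gene-end regions. In MUT replicate 26 and WT replicate 4 it ended 796 bp inside the gene, and in the other 6 libraries 998 to 1009 bp inside. The midpoint crossed from one gene to the other with that edge, so the nearest-end rule gave Cct7 1215, 0, 0 and 0 bp in MUT and 1193, 0, 0 and 0 bp in WT, and gave the rest to Pradc1. The 0s are an effect of the linking rule, since the region was called in all 8 libraries. The width difference of the region was −0.038 (SE 0.075; limma adjusted p = 0.90; 95% interval −0.21 to 0.13).

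**Figure D5:**
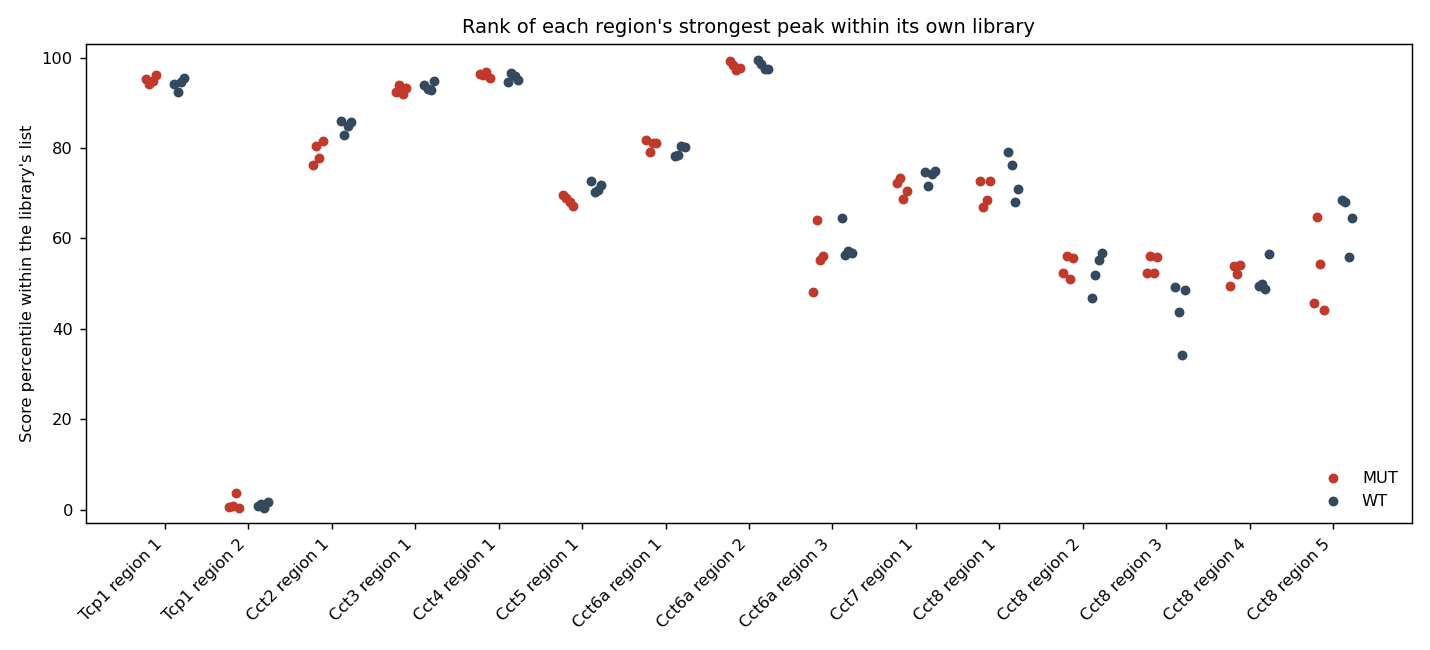
Score percentile of the strongest peak of each of the 15 regions within its library's list in the 4 MUT libraries (left in each pair) and the 4 WT libraries (right), 1 point per library. The first regions of Tcp1, Cct3 and Cct4 and the region beyond Cct6a are above 90 in every library, and the second Tcp1 region is below 4.

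When every peak within 1 kb of a subunit gene was given to that gene, all 8 genes could be tested, and 0 passed (0.673% of 14257 genes). The median difference was −0.035, with 6 genes below 0 and 2 above. Cct3 then had 869, 1144, 875 and 903 bp in MUT and 857, 890, 876 and 853 bp in WT, a difference of 0.063 (SE 0.063; limma adjusted p = 0.765; 95% interval −0.080 to 0.21). Cct7 had a difference of −0.043 (SE 0.075; limma adjusted p = 0.867; 95% interval −0.21 to 0.13) in place of 0.0083 (SE 0.85; adjusted p = 0.999). Protein-coding genes with an end within 2 kb of a subunit gene's end numbered 10, and 5 of these had a linked peak in enough libraries to be tested. By the nearest-end rule Tsacc, Cmbl (next to Cct5), Sumf2, Pradc1 and Usp16 (next to Cct8, a histone H2A deubiquitinase gene) had limma adjusted p-values of 0.765, 0.806, 0.730, 0.992 and 0.992, so none passed. The other 5, Mrpl18 and Acat3 next to Tcp1, Atpsckmt next to Cct5, Psph and Fbxo41, were not tested.

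Genes that work with TRiC, genes like its subunits and the mitochondrial chaperonin genes were followed in 8 lists, 43 genes in all. Of these 37 were tested and 0 passed, against 0.673% of all genes. The median difference was −0.032 with 23 of 37 below 0, against 57.9% of all genes, and 3 (Tbcb, Bbs12 and Gnb1) had an unadjusted limma p under 0.05, against 11.2%. In 1 of the 37, Tubg1, the lengths did not overlap, against 5.75% of all genes. Of the prefoldin genes 4 of 6 were tested, with a median of −0.034 and a range from −0.10 (Pfdn4) to 0.053 (Pfdn5). Of the phosducin-like and other cochaperone genes 3 of 4 were tested, with a median of −0.032, from −0.035 (Txndc9) to 0.060 (Pdcl3). Of the actin and tubulin genes 10 of 11 were tested, with a median of −0.031, from −0.11 (Tuba1c, adjusted p = 0.588) to 0.20 (Tubb2a, adjusted p = 0.524, limma). Tubg1, the gene for gamma-tubulin, had 851, 860, 859 and 842 bp in MUT and 821, 828, 816 and 829 bp in WT. All 4 MUT values were above all 4 WT values, and the scaled difference was 0.0093 (limma adjusted p = 0.964). Tubg1 and Gnb1 were named after their values were seen. None of these lists had a gene past the threshold in either direction.

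The 5 tubulin folding cofactor genes, whose products join tubulin chains after TRiC, had a median of −0.048. Tbcb had 621, 663, 649 and 645 bp in MUT and 869, 1070, 623 and 905 bp in WT, and WT replicate 6 lay among the MUT values (difference −0.35, SE 0.12; limma adjusted p = 0.314). Tbcc was linked to 1315, 1325, 1304 and 200 bp in MUT and 0, 231, 1283 and 297 bp in WT (difference 1.07; limma adjusted p = 0.594), although a region within 1 kb of its end was called in all 8 libraries. When peaks were linked by their nearer edge the difference was −0.35, so these lengths depend on which gene a peak is given to. The 10 WD40-repeat and other substrate genes had a median of −0.030. Gnb1, a Gβ gene, had 1886, 2245, 1963 and 1978 bp in MUT and 1663, 1822, 1893 and 1594 bp in WT, with 1 WT value among the MUT values (difference 0.16, SE 0.058; limma adjusted p = 0.363). Hdac3 had 549, 481, 0 and 0 bp in MUT and 0, 0, 626 and 0 bp in WT, and Gnb5, another Gβ gene, was listed at 0 in all 4 MUT libraries and at 0, 200, 257 and 0 bp in WT (adjusted p = 0.861 and 0.626, limma). Both genes had a region within 1 kb of an end in all 8 libraries, so a 0 does not mean that no peak was called near the gene. With peaks linked by their nearer edge the Hdac3 difference was −0.54 in place of 0.38, so it depends on which gene a peak is given to. The Gnb5 difference was −0.55 by the main rule, by the nearer edge and by the midpoint of the merged region. The linking point thus did not change it.

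The 3 chaperonin-like BBS genes, which help assemble the BBSome of the cilium, had a median of −0.088. Bbs12 had the lowest p of the 8 lists, with 393, 378, 389 and 407 bp in MUT and 921, 909, 866 and 386 bp in WT. WT replicate 7 lay among the MUT values, and the difference of −0.69 (SE 0.19) did not pass (limma adjusted p = 0.232). Without WT replicate 7 it was −0.91 and passed (adjusted p = 0.00347), and with peaks linked by the midpoint of the merged region it was 0.012 (adjusted p = 0.969). Bbs10 had −0.017 (adjusted p = 0.926, limma). Of the mitochondrial chaperonin genes Hspe1 was tested (0.0073, limma adjusted p = 0.983) and Hspd1 was not. Of the TRiC relatives Cct8l1 was tested (0.0050, limma adjusted p = 0.984) and Cct6b was not. Hspd1, Cct6b and the prefoldin genes not tested (Pfdn2 and Pfdn6) had a region within 1 kb of a gene end in all 8 libraries. That they were not tested thus does not mean that no peak was called near them.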

How the data were processed

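The 8 ATAC-seq libraries, 4 MUT and 4 WT, have 1 deposited peak list each, and the lists were not pooled. A line of a list gives a peak's position and name and, in its last column, the authors' score without a name or unit. Per the submitters' processing notes the genome build was mm10 (GRCm38). These notes list Bowtie2 2.3.4.1, Trimmomatic, DiffBind 3.0.12 and DESeq2 without saying what each was used for. For the peak caller, its threshold, read filters and transposase shift, the settings were not given in the sources used here. A caller's rule for joining or splitting nearby summits sets peak width, so width and linked length carry that rule.

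Peaks were linked to RefSeq protein-coding genes (GRCm38.p6, mitochondrial genes left out), merged into regions and summed per gene or region with Python 3.11.15, numpy 2.4.6 and pandas 2.3.3. Differences were fitted with limma 3.58.1 (R 4.3.3) with a mean-variance trend over all 8 libraries, and Fisher's exact test came from scipy 1.17.1. Figures were drawn with matplotlib 3.10.9. The fits were tested on simulated data with planted changes. A planted log2 difference of 0.5 was called in 58% of cases for linked length and 56% for region width. A planted difference of −1 was called in 78% and 86%. Smaller differences were not planted. The highest share of peaks with identical ends in any 2 lists was 0.596% of the shorter list, so no library was a copy of another. Positions are 1-based. Exons and introns were not analysed here.

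The genes named are the 8 subunit genes with all their regions, protein-coding genes within 2 kb of their ends, and in each list the genes that passed, those with a region in 1 genotype only, and the largest and smallest difference. The members and lists were chosen with earlier results of these data known. Alternatives covered the pseudocount (1000 bp), scaling, equal numbers of peaks, the upper 50% of each list, links up to 10 kb, the linking point, the filter, an overlap of 100 bp, width in bp, and each library left out. The width of the widest peak in a region was added as an alternative after seeing the data.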

Additional observations from a re-analysis of the deposited data

Results flagged for a closer look

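In 12 of 74 groups of 4 libraries, 1 library stood apart from the other 3 by more than Dixon's 95% limit. For independent groups chance gives about 1 in 20, but these groups are not independent. At Cct2, Cct4 and Cct5 the linked length repeats the region width, and the Cct7 lengths follow from the linking rule. The count can therefore not be read as more than chance gives. At Cct7, MUT replicate 26 had a linked length of 1215 bp and the other MUT libraries 0, and WT replicate 4 had 1193 bp and the other WT libraries 0. The width of the same region was 1193 bp in WT replicate 4 and 1424 to 1430 bp in the other WT libraries, and its score percentile was 71.6 in WT replicate 5 and 74.4 to 74.9 in the others. At Cct3 the shared region was 1144 bp wide in MUT replicate 27 and 869 to 903 bp in the other MUT libraries. At Cct5 both the region width and the linked length, which rest on the same peaks, were 1144 bp in MUT replicate 29 and 1202 to 1207 bp in the other MUT libraries. At Cct8 the region over the start was 708 bp wide in WT replicate 5 and 967 to 994 bp in the other WT libraries, and the fourth region had a score percentile of 56.5 in WT replicate 7 against 48.9 to 49.9. At Cct6a the linked length was 1555 bp in WT replicate 5 and 1420 to 1434 bp in the other WT libraries, and the region farthest before the start had a percentile of 64.6 in WT replicate 4 against 56.4 to 57.2. At Tcp1 the second region had a percentile of 3.71 in MUT replicate 28 and 0.406 to 0.729 in the other MUT libraries.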

How the results depend on the processing

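No subunit gene and no subunit region passed the limma tests under any of the alternatives run. The lowest limma adjusted p of a subunit gene was 0.212, for Cct8 with equal numbers of peaks. No paired analysis was possible because the MUT and WT libraries share no replicate numbers. The number of genes passing, 96, was 41 with links up to 10 kb. With a library left out it was 22 to 79, and 29 without MUT replicate 26, 45 without MUT replicate 27, 35 without MUT replicate 28, 24 without WT replicate 4, 22 without WT replicate 5 and 48 without WT replicate 7. Of the genes passing, 65.6% were higher in MUT, against 76.8% with no scaling and 55.4% with equal numbers of peaks. The number of regions passing the width test, 27, was 15 with the upper 50% of each list and 18 to 47 with a library left out (without MUT replicate 28, 18; without MUT replicate 29, 47; without WT replicate 5, 42; without WT replicate 6, 45), and 76.7% of them were higher in MUT with no scaling, against 63.0%. Regions in MUT only numbered 346 to 522, and regions in WT only 102 to 198, with a library left out, where a genotype then needs only 3 libraries to differ, and those in WT only were 138 with equal numbers of peaks, against 89. With the upper 50% of each list 12 subunit regions remained, 7 of them in every library. The third Cct8 region was then in MUT only. Of all regions, 208 were in MUT only and 66 in WT only in this setting. The number of all regions in this setting was not counted, so these have no share. Nothing particular to Cct8 can be read from them. In the full lists the third Cct8 region was at percentiles 52.4 to 56.1 in MUT and 34.2 to 49.2 in WT, on either side of the 50% cut. With a library left out 13 of 13 stayed in every library and 0 were in 1 genotype only.

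The direction of some small length differences turned. With no scaling the difference was 0.00047 for Tcp1, 0.0085 for Cct2 and 0.015 for Bbs10. With equal numbers of peaks it was 0.0043 for Bbs10 and −0.018 for Hspe1. With the upper 50% it was 0.022 for Tcp1, −0.037 for Hspe1, −0.058 for Pdcl3 and −0.68 for Gnb1. With links up to 10 kb it was −0.058 for Pdcl3, 0.0089 for Tuba1c and −0.0087 for Tubb2a. Linking by the merged region's midpoint gave 0.012 for Bbs12, and linking by the peak's nearer edge gave 0.012 for Bbs12, −0.043 for Cct7, −0.54 for Hdac3, −0.39 for Pfdn5 and −0.35 for Tbcc. Giving peaks within 1 kb to the subunit genes gave −0.043 for Cct7. Of region widths, no scaling gave 0.010 for the first Cct2 region, 0.0047 for the first Cct6a region and 0.011 for the third Cct8 region, and the upper 50% gave 0.0061 for Cct2 and 0.00036 for Cct6a. With a library left out, length differences ran from −0.050 to 0.0069 for Cct2, −0.23 to 0.24 for Cct7, −0.033 to 0.0069 for Bbs10, −0.021 to 0.030 for Cct8l1, −0.037 to 0.071 for Hspe1, −0.039 to 0.13 for Pdcl3, −0.016 to 0.037 for Tubg1 and −0.0099 to 0.082 for Pfdn5, and widths from −0.043 to 0.0053 for the Cct2 region, −0.056 to 0.037 for Cct6a, −0.11 to 0.0090 for Cct7, −0.060 to 0.020 for the third Cct8 region and −0.0092 to 0.041 for the first Tcp1 region. None of these passed in either direction, and the cause of the turns was not tested. The lists give no depth, so a difference too small for the caller to show as width cannot be seen.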

Other observations

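Over the 8 libraries, the genes whose scaled log2 linked length was most like the mean of the subunit genes were 9130401M01Rik (Pearson r = 0.976), Fdft1 (r = 0.957) and Fkbp9 (r = 0.951), out of 10664 genes with a peak in 8 of 8 libraries and a mean length within the range of the subunit genes. There were 12 such genes with r over 0.9. The mean of the subunit genes itself correlated with Cct7 alone at r = 0.985, whose linked length was above 0 in MUT replicate 26 and WT replicate 4 only. All values share the 8 libraries and their scaling.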
